A study of Mus musculus with 6 samples.

Results

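Cholesterol and fatty acid synthesis share 1 starting material, cytosolic acetyl-CoA, and 38 genes of these pathways were followed in R1 mouse embryonic stem cells, an established line, between 24 h and 48 h of FGF2. The genes were chosen by their known function, by symbol, from the 51912 genes of the table. Their choice was made with earlier fold changes of these same libraries in view, and Acsl4 was singled out because its rise was among the most certain, at rank 5 by p-value among the 7334 genes with a positive fold change. Counts over the 38 genes are therefore descriptions and support nothing on their own. The 38 genes fall into a sterol branch of 18 enzymes, a fatty acid branch of 14, and 6 genes of SREBP control and sterol transport.

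The cells had been grown in 2iLIF, the medium that holds the naive state with inhibitors of MEK and GSK3 and the cytokine LIF. They were then moved to serum-free N2B27 with FGF2 at 100 ng/ml, for 24 h in 3 libraries and for 48 h in 3 others. All 6 libraries had FGF2, and no library of cells before or without it is used here, so the effects of FGF2, of the medium and of time in culture cannot be told apart. Nothing in the labels says that replicates were grown apart, and p-values measure only the spread between these libraries.

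In the sterol branch, acetyl-CoA units are joined to HMG-CoA, turned into mevalonate and isoprenoid diphosphates, condensed to squalene, closed to lanosterol and trimmed to cholesterol. In the fatty acid branch, citrate is split by Acly, acetyl-CoA is carboxylated by Acaca and built into palmitate by Fasn, and the chains are then lengthened (Elovl enzymes), desaturated (Scd and Fads enzymes) and activated to acyl-CoA (Acsl enzymes). The transcription factors SREBP1 and SREBP2, encoded by Srebf1 and Srebf2, are held in the endoplasmic reticulum by Scap and the Insig proteins when sterols are plentiful, and otherwise switch on genes of both branches.

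Libraries held between 19574969 and 23133148 estimated counts. The 6 pluripotency markers checked (Pou5f1, Sox2, Sall4, Lin28a, Utf1 and Dppa4) summed to between 2319 and 2344 CPM (counts scaled for depth, with library sizes adjusted by edgeR's TMM factors) at 24 h and between 2722 and 2767 CPM at 48 h. Lin28a alone went from 192 to 563 CPM in the mean, Sall4, Utf1 and Dppa4 were also called higher, and Pou5f1 and Sox2 were called lower (log2 fold changes -0.07 and -0.37). Of the markers of other cells, 6 fibroblast genes summed to at most 3.35 CPM, with Lum and Postn at 0 in every library. The 6 primitive endoderm genes summed to between 9.31 and 11.1 CPM at 24 h and between 5.58 and 6.32 CPM at 48 h. The 6 trophoblast genes fell from between 27.5 and 28.5 CPM to between 6.996 and 7.848 CPM in sum, mostly through Krt8, with Cdx2, Elf5, Krt7 and Gata3 under 1 CPM in every library. The part of these shifts in the results was not tested. In bulk RNA, fewer cells of a type and less RNA per cell cannot be told apart.

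All 38 genes passed the filter on low counts. With the quasi-likelihood test of edgeR fitted to 14889 genes, and a gene called where its adjusted p was below 0.05, 24 were higher at 48 h and 10 lower. Of all tested genes 30.9% were called higher, 31.9% lower and 62.8% in either direction. Every one of the 38 had a mean of at least 10 CPM, and of the tested genes at such levels 71.8% were called. The values of the 3 libraries at 24 h and the 3 at 48 h did not overlap for 33 of the 38, against 66.9% of all tested genes. That last share was not taken over genes of at least 10 CPM alone. Most shifts were small. The median log2 fold change (48 h over 24 h) was 0.11 for the 38 genes and -0.01 for all tested genes, and 2 genes, Acsl4 and Acsl5, changed at least 2-fold. The other 36 lay between -0.86 and 0.62, as the plot of fold changes over all tested genes shows.

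**Figure D1:**
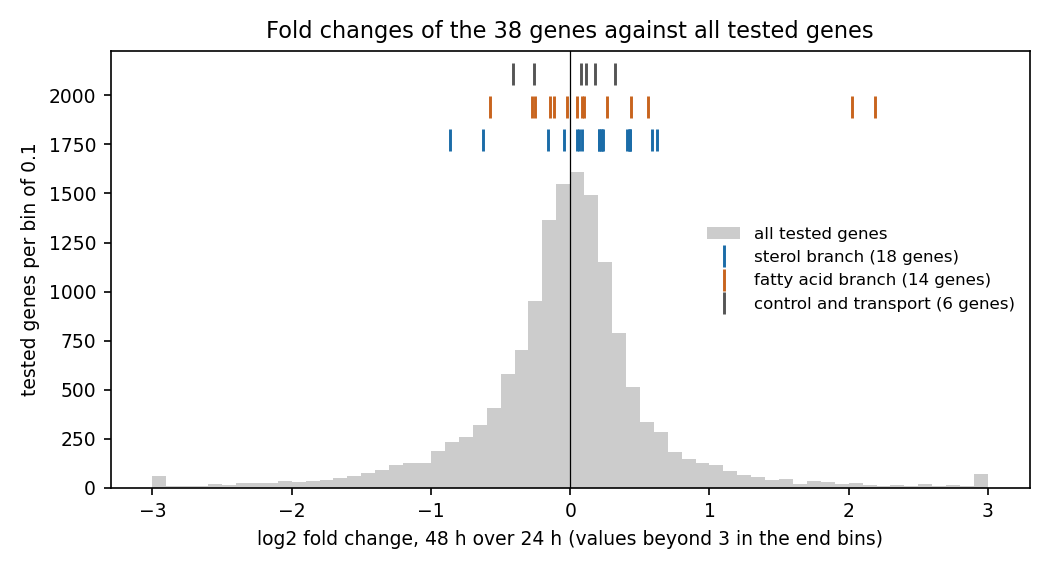
Histogram of log2 fold changes (48 h over 24 h, x axis) of the 14889 tested genes, as genes per bin of 0.1 (values beyond 3 in either direction are in the end bins), with 1 tick per gene above it for the sterol branch (18), the fatty acid branch (14) and the control and transport genes (6). The 2 ticks above 2 are Acsl4 (2.19) and Acsl5 (2.02), and the lowest tick is Ebp (-0.86).

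Promoter sequence is a feature that the choice of genes did not use. SREBP is known to bind a sterol element next to sites for NF-Y, which binds CCAAT, and Sp1, which binds GGGCGG. RefSeq windows (build GRCm38.p6) from 250 bases before to 50 after a start site were found for 31 of the 38 genes. The 7 without a window were Sqle, Fdft1, Fdps, Stard4, Scd1, Scd2 and Fads1. The core TCACNCCAC was searched on both strands. It stood in 2 of the 31 genes with a window (6.45%), Hmgcs1 and Acsl1, and in 1.5% of the tested genes with a window. CCAAT on either strand stood in 14 of the 15 sterol branch genes with a window, in 7 of 11 fatty acid branch genes, and in 43.94% of tested genes. GGGCGG stood in 14 of 15, in 6 of 11 and in 68.84%. CACGTG, the E-box, stood in 3 of 15, in 1 of 11 and in 11.8%. In the windows of the 38 genes, matches of different motifs overlapped at 1 place, a CCAAT and a GGGCGG of Elovl1. A match is not a binding site, and a window without the core does not show that a gene lacks a sterol element. A gene with several start sites had several windows.

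The windows below are those of Hmgcs1, the most abundant sterol gene, which rose; Ebp, the sterol gene with the largest fall; Fasn, which rose most among the enzymes of fatty acid synthesis; and Acsl4 and Acsl1, synthetases that moved in opposite directions. They lie at chr13:119690101-119690400 (plus strand), chrX:8193463-8193762 (minus), chr11:120824498-120824797 (minus), chrX:142390486-142390785 (minus) and chr8:46490716-46491015 (plus, the downstream of 2 Acsl1 windows). Capitals mark TCACNCCAC or its reverse complement, and CCAAT or its reverse complement ATTGG.
Hmgcs1: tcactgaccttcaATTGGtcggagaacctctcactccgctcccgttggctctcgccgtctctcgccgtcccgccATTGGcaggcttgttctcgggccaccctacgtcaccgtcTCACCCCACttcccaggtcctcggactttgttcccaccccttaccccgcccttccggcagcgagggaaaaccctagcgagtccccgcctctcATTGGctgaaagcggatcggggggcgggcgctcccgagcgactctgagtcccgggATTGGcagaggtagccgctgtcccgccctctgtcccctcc
Ebp: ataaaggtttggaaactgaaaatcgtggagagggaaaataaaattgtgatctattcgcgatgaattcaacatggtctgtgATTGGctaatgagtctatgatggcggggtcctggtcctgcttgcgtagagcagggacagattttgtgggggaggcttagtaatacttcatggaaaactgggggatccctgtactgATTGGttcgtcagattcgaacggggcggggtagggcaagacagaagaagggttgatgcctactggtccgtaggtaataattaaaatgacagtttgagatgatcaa
Fasn: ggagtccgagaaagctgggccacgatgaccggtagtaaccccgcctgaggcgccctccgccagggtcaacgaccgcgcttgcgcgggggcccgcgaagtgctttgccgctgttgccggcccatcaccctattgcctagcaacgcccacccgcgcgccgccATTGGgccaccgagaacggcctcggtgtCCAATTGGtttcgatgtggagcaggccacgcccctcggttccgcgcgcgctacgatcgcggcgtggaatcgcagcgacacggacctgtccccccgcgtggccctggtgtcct
Acsl4: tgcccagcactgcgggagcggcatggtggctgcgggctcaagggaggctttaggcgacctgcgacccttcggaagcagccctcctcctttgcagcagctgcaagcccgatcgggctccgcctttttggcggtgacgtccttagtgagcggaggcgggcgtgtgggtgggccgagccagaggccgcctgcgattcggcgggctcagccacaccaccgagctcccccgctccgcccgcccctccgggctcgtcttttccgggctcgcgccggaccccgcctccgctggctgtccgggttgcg
Acsl1: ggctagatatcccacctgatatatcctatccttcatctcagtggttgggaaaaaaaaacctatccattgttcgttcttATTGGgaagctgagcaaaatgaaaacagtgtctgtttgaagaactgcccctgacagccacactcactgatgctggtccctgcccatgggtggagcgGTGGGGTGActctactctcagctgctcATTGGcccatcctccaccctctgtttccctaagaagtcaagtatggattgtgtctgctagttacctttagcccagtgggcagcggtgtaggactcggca
The core of Hmgcs1 starts at position -137 from the start site, and its window has 4 CCAAT matches. Ebp and the Acsl1 window shown have 2 CCAAT matches each, Fasn has 3, and the Acsl4 window has neither motif. Of the Fasn matches, 2 share bases, as CCAATTGG holds a match on each strand. The upstream Acsl1 window has no CCAAT match. Whether the number of matches goes with the direction of change was not tested. The core of the Acsl1 window lies on the minus strand at position -76.

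In the mevalonate arm, 6 of 7 genes were called higher and 0 lower, with a median log2 fold change of 0.23. The shares over all tested genes were 30.9% higher and 31.9% lower. Hmgcs1 (ENSMUSG00000093930), the HMG-CoA synthase whose promoter is shown above, stood at 682, 675 and 666 CPM at 24 h and at 889, 902 and 914 CPM at 48 h. The highest 24 h library was well below the lowest 48 h library, and the log2 fold change was 0.42 ± 0.02 (standard error; adjusted p = 1.26e-12). Idi1, the isomerase that makes dimethylallyl diphosphate, stood at 291, 283 and 283 CPM and then at 375, 376 and 385 CPM. Its change was about the size of that of Hmgcs1, at 0.41 ± 0.02 (adjusted p = 1.83e-11).

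The other enzymes of this arm moved less. Fdps, the farnesyl diphosphate synthase, Mvd, which decarboxylates mevalonate diphosphate, and Pmvk, the phosphomevalonate kinase, had log2 fold changes of 0.23, 0.23 and 0.22. Acat2, the cytosolic thiolase that makes acetoacetyl-CoA, was called at 0.06 (adjusted p = 0.0426), a value that became -0.0004 with library size as the only scaling. Its adjusted p ranged from 0.0243 to 0.99 over the alternatives. Mvk, the mevalonate kinase, stood at 37.9, 36.6 and 35.5 CPM and then at 34.8, 37.1 and 34.7 CPM, with overlapping groups (log2 fold change -0.04 ± 0.05, adjusted p = 0.436).

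From squalene to cholesterol, 7 of 11 genes were called higher and 3 lower, with a median of 0.20. Against 30.9% higher and 31.9% lower over all tested genes, the 3 of 11 called lower are close to the general share. The rises were largest in the steps just after squalene. Sqle (ENSMUSG00000022351), the squalene epoxidase, a known control point of the pathway, stood at 153, 153 and 156 CPM at 24 h and at 239.9, 234 and 237 CPM at 48 h. This was the largest rise of the sterol branch, 1.54-fold, or 0.62 ± 0.02 on the log2 scale (adjusted p = 3.25e-13). Lss, the lanosterol synthase, went from 109.5, 107.5 and 102.1 CPM to 162, 163 and 154 CPM (a shift of 0.59 ± 0.03 on the log2 scale, adjusted p = 6.58e-11). Fdft1, the squalene synthase just before them, changed only from 224 to 238 CPM in the mean, a log2 fold change of 0.09 whose call was lost with library size as the only scaling (0.03, adjusted p = 0.29; 0.29 was also its highest over the alternatives).

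Beyond lanosterol, Cyp51, the lanosterol demethylase, and Hsd17b7, a sterol ketoreductase, both had a log2 fold change of 0.43. Nsdhl, a dehydrogenase that helps to remove methyl groups, and Sc5d, a sterol desaturase, followed at 0.21 and 0.20. Msmo1, the methyl oxidase, was not called (0.05 ± 0.02, adjusted p = 0.0819), was called with RLE scaling (0.055, adjusted p = 0.046) and had a value of -0.01 with library size only. Its adjusted p ranged from 0.0109 to 0.624 over the alternatives.

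The 3 sterol genes that fell all act after lanosterol. Ebp (ENSMUSG00000031168), a sterol isomerase, stood at 20.02, 19.5 and 19.4 CPM at 24 h and at 9.99, 10.2 and 12.3 CPM at 48 h. Its groups lay far apart, and the log2 fold change of -0.86 ± 0.08 (adjusted p = 1.13e-07) was the largest fall among the 38 genes. Tm7sf2, a sterol reductase, went from 25.3, 24.1 and 22.8 CPM to 15.9, 15.6 and 15.2 CPM (a shift of -0.63 ± 0.06 on the log2 scale, adjusted p = 2.33e-07). Dhcr7, the reductase of 7-dehydrocholesterol, fell less, from 106, 100.2 and 99.8 CPM to 90.6, 91.1 and 92.1 CPM (a shift of -0.16 ± 0.03 on the log2 scale, adjusted p = 0.000271). Ebp and Tm7sf2 were also among the least abundant genes of the branch, with levels per length of 26.6 and 17.1 TPM at 24 h, against 458.5 TPM for Hmgcs1. Hsd17b7 and Sc5d, which rose, also lay below Ebp at 24 h, at 19.95 and 17.1 TPM. TPM here is the CPM per kilobase of merged exons, scaled to the same total in each library.

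**Figure D2:**
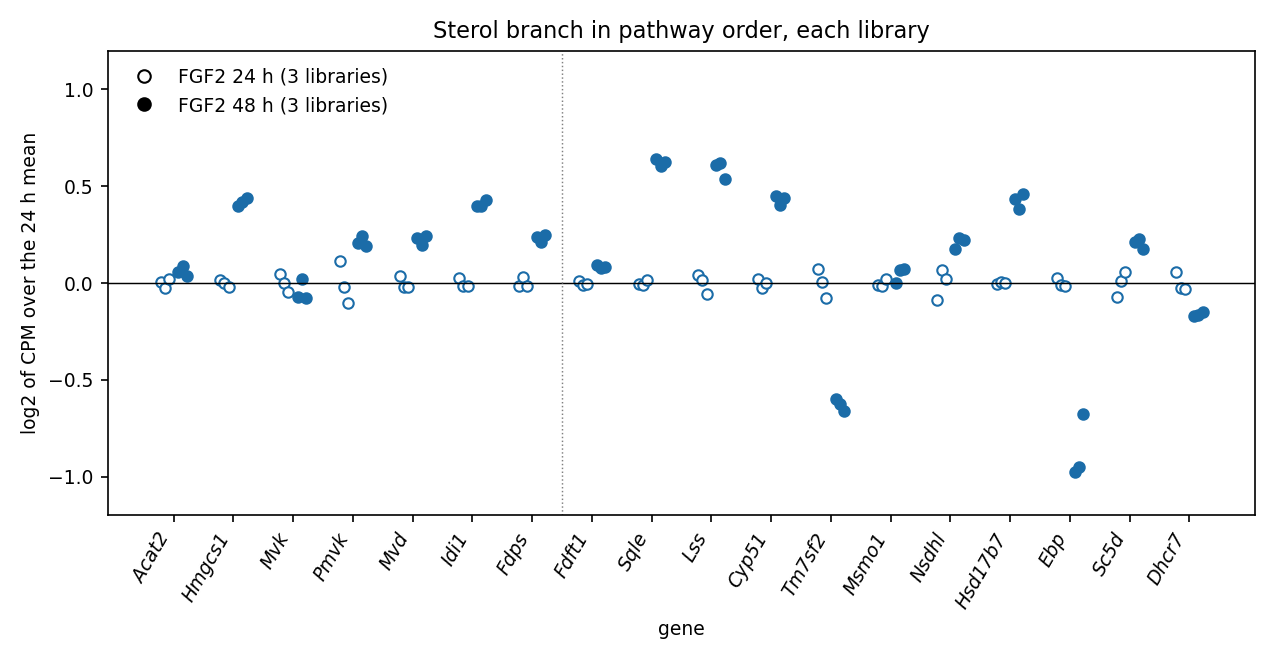
For the 18 sterol branch genes in pathway order (x axis), each library's CPM over the gene's 24 h mean on a log2 scale (y axis), with open points for the 3 libraries at 24 h and filled points for the 3 at 48 h. The dotted line separates the mevalonate arm from the steps after it; Sqle and Lss lie highest at 48 h, and Ebp, Tm7sf2 and Dhcr7 lie below their 24 h values.

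In the control genes, the 2 SREBP genes moved in opposite directions. Srebf1 (ENSMUSG00000020538), whose product is best known for fatty acid genes, stood at 103, 99.4 and 105 CPM at 24 h and at 78.3, 78.2 and 75.3 CPM at 48 h (log2 fold change -0.41 ± 0.03, adjusted p = 8.44e-09). Srebf2, whose product is best known for sterol genes, stood at 314, 317 and 323 CPM and then at 352, 347 and 334 CPM (0.12 ± 0.02, adjusted p = 0.000222). Neither gene's groups overlapped. Within each library the level per length of Srebf2 was 2.43 ± 0.062 times that of Srebf1 at 24 h and 3.49 ± 0.024 times at 48 h (SD, n = 3 each).

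The Insig genes, whose products retain SREBP, also parted. Insig1, itself a known SREBP target, stood at 174, 179 and 178 CPM and then, higher, at 200.5, 198 and 203 CPM (log2 fold change 0.18, adjusted p = 3.48e-06). Insig2 stood at 17.0, 17.5 and 18.0 CPM and then, lower, at 15.2, 14.0 and 14.6 CPM (log2 fold change -0.26, adjusted p = 0.00327). Scap, the SREBP escort, had overlapping groups and a log2 fold change of 0.07 ± 0.05 (adjusted p = 0.193). Stard4, which carries cholesterol between membranes, was higher at 48 h (0.32 ± 0.03 on the log2 scale, adjusted p = 8.11e-08). Its libraries stood at 117, 123 and 116 CPM at 24 h and at 143, 149.5 and 151 CPM at 48 h.

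In fatty acid synthesis the enzymes that build palmitate rose. Fasn (ENSMUSG00000025153), the fatty acid synthase, stood at 649, 644 and 642 CPM at 24 h and at 967, 958 and 919.8 CPM at 48 h. That was 1.47-fold, or 0.56 ± 0.02 on the log2 scale (adjusted p = 1.49e-13). Acaca, the acetyl-CoA carboxylase before it, went from 202, 196 and 193 CPM to 267, 268 and 261 CPM (0.43 ± 0.02, adjusted p = 5.08e-11). Acly, the citrate lyase, was high at both times, at 707 ± 0.69 and 732 ± 3.42 CPM (SD, n = 3). Its log2 fold change of 0.05 (adjusted p = 0.00812) turned to -0.01 with library size as the only scaling (adjusted p = 0.5745). Its adjusted p over the alternatives lay between 0.00272 and 0.5745.

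The elongases and desaturases went both ways. Scd2, a stearoyl-CoA desaturase and the most abundant of the 38 genes per length at both times (939 and 857 TPM), stood at 1637, 1653 and 1635 CPM and then at 1523, 1522 and 1507 CPM (log2 fold change -0.11 ± 0.01, adjusted p = 1.55e-06). Its paralog Scd1 fell too, with 391, 392 and 386 CPM followed by 351, 356 and 347 CPM (-0.15 on the log2 scale, adjusted p = 2.57e-06). Both had fractional counts, as reads divided between similar genes give. Fads2, the desaturase that begins the synthesis of long polyunsaturated chains, had 98.1, 98.6 and 88.7 CPM at 24 h and rose to 116, 116 and 111 CPM (0.27 ± 0.04 on the log2 scale, adjusted p = 1.07e-05).

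Fads1, the next desaturase, was called at 0.08 (adjusted p = 0.0345), although its groups overlapped at 116 CPM: 113, 116 and 116 CPM at 24 h, 126, 125 and 116 CPM at 48 h. Its call was lost in 5 of the 6 fits that left out 1 library and under DESeq2, with an adjusted p between 0.0026 and 0.559 over the alternatives. Elovl6, which lengthens palmitate, rose by 0.10 on the log2 scale, and Elovl5, which lengthens polyunsaturated chains, fell (log2 fold change -0.27 ± 0.03, adjusted p = 3.35e-07). Elovl1 was not called (-0.03 ± 0.08, adjusted p = 0.788). Elovl6 lost its call with library size as the only scaling (0.04, adjusted p = 0.138), the highest of its alternatives.

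The largest changes were in the long-chain acyl-CoA synthetases, which activate fatty acids and differ in the chains they prefer. Acsl4 (ENSMUSG00000031278), known for its preference for arachidonate and other polyunsaturated chains, stood at 63.8, 65.7 and 61.1 CPM at 24 h and at 282, 299 and 288 CPM at 48 h. It was 4.56-fold higher, with a log2 fold change of 2.19 ± 0.03 (standard error), given without a test since this rise chose the gene. Acsl5 stood at 6.31, 6.06 and 4.58 CPM and then at 22.3, 23.7 and 22.4 CPM. This was nearly as large a rise, 4.04-fold (log2 fold change 2.02 ± 0.10, adjusted p = 1.76e-11). Over all 6 libraries Acsl5 had between 108 and 519 counts, the fewest at 24 h.

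The other 2 synthetases fell. Acsl1, known for palmitate and oleate, stood at 69.6, 69.5 and 74.6 CPM at 24 h and at 46.0, 49.7 and 47.7 CPM at 48 h (log2 fold change -0.58 ± 0.04, adjusted p = 2.65e-09). Acsl3, found on lipid droplets and the endoplasmic reticulum, went from 133, 130.3 and 124 CPM to 105, 109.6 and 111 CPM (-0.25 ± 0.03, adjusted p = 3.66e-06). The order of the family per length was reversed at its top. Acsl3 led at 24 h with 92.6 ± 3.31 TPM against 36.7 ± 1.37 TPM for Acsl4, and Acsl4 led at 48 h with 165.5 ± 5.17 TPM against 76.8 ± 2.01 TPM (SD, n = 3). Acsl1 and Acsl5, at 14.1 ± 0.56 and 14.5 ± 0.56 TPM at 48 h, did not differ beyond their spread. As a family the 4 genes summed to between 264 and 273 CPM at 24 h and between 455 and 482 CPM at 48 h, a rise carried by Acsl4.

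**Figure D3:**
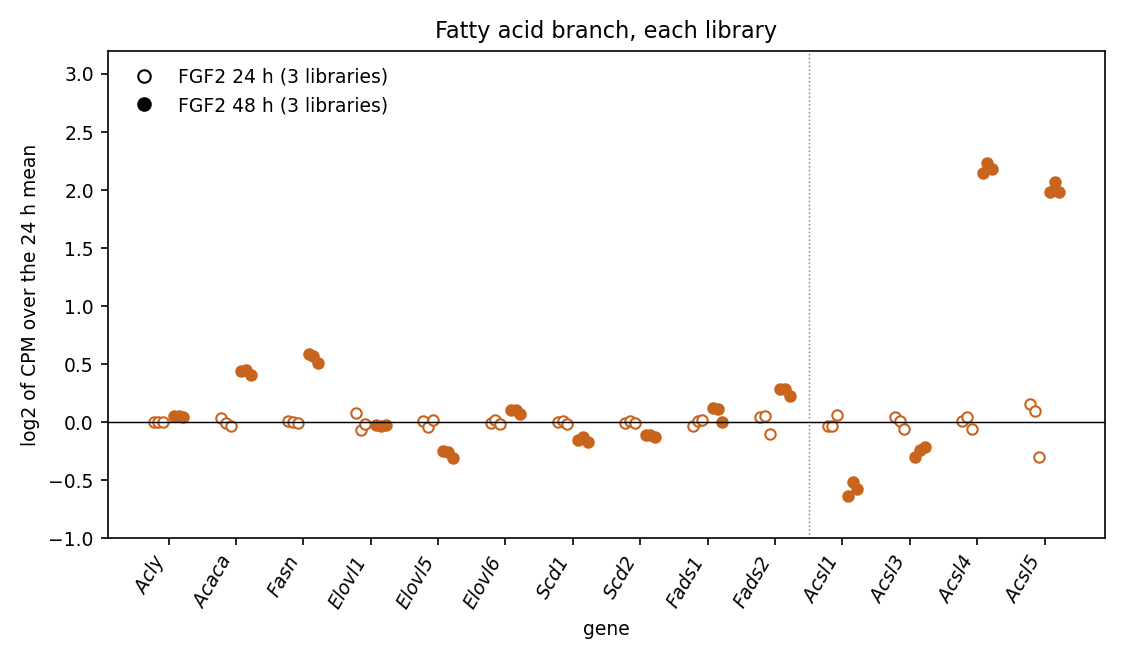
For the 14 fatty acid branch genes (x axis), each library's CPM over the gene's 24 h mean on a log2 scale (y axis), with open points for 24 h and filled points for 48 h (3 libraries each). The dotted line separates synthesis, elongation and desaturation from the acyl-CoA synthetases; Acsl4 and Acsl5 lie near 2 at 48 h while Acsl1 and Acsl3 lie below 0.

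Set side by side, the sterol branch had 13 of 18 genes called higher and 3 lower, with a median log2 fold change of 0.21, and the fatty acid branch had 8 of 14 higher and 5 lower, with a median of 0.07. Of all tested genes 30.9% were called higher and 31.9% lower, and the 5 of 14 called lower are close to that share. Without Acsl4 the fatty acid median was 0.05. The summed level of the sterol genes was 2632, 2600 and 2591 CPM at 24 h and 3176, 3191 and 3214 CPM at 48 h, 1.23-fold higher. That of the fatty acid genes was 4507, 4516 and 4468 CPM and then 4980, 4998 and 4887 CPM, 1.10-fold higher. Scd2, Acly and Fasn held most of this level, although Scd2 fell. The sum includes Acsl4, singled out for its rise, which went from 63.5 to 290 CPM in the mean. Without the synthetases, the 10 genes of synthesis and desaturation went from 4227 to 4486 CPM in the mean, 1.06-fold. The difference of the medians, 0.15, was not tested, and it lay between 0.14 and 0.17 over the alternatives. The alternatives use the same genes, and a change of scaling shifts both medians alike. Their range therefore does not measure the spread between genes. Quartiles of the log2 fold changes were 0.05 and 0.42 in the sterol branch, and -0.14 and 0.39 in the fatty acid branch. The 2 branches thus overlapped widely. Each median alone moved with the scaling: with library size only, which shifts the median of all tested genes to -0.07, they were 0.15 and 0.01. The 5 calls of the smallest rises, Acat2, Acly, Fads1, Fdft1 and Elovl6, were lost with that scaling.

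**Figure D4:**
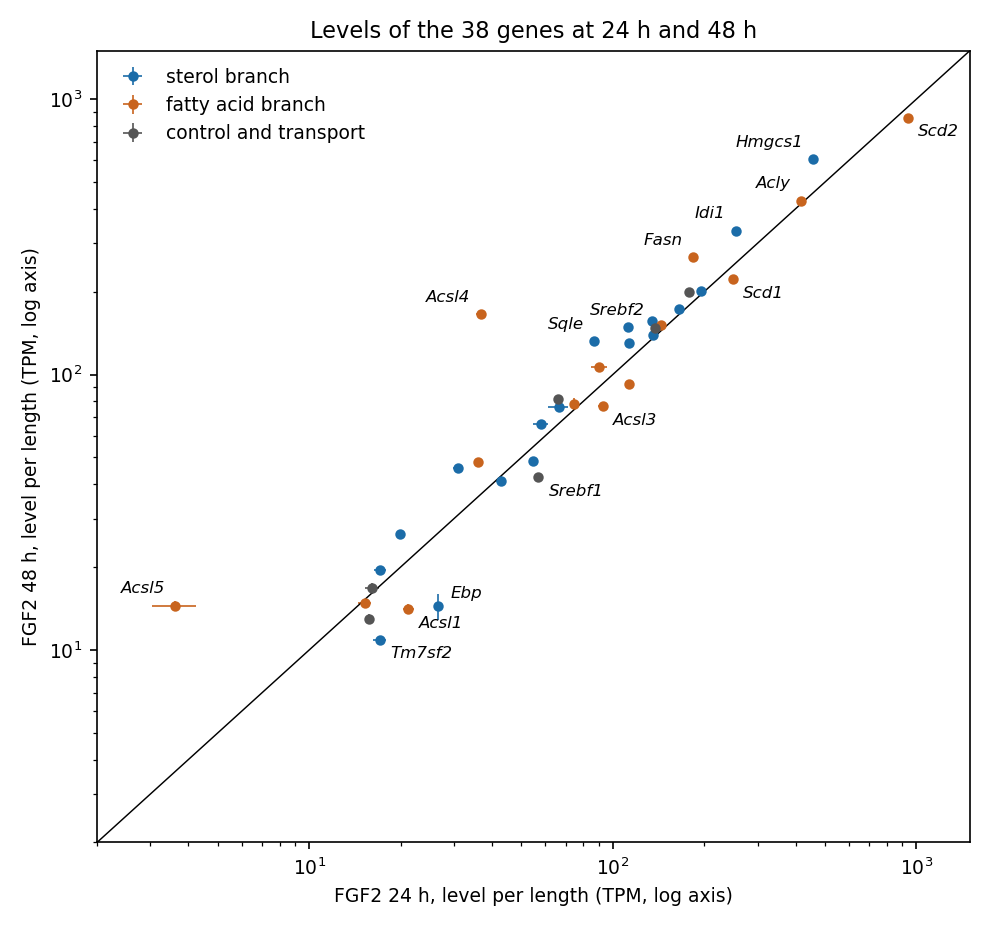
Level per length (TPM, log axes) of the 38 genes at 24 h (x axis) and 48 h (y axis), as means with SD bars over 3 libraries, coloured by branch, with the line of equal levels. Most genes lie close to the line; Acsl4 (36.7 to 165.5 TPM) and Acsl5 (3.63 to 14.5 TPM) lie farthest above it and Ebp (26.6 to 14.4 TPM) well below it.

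Other genes of the same pathways, from lists that hold none of the 38, were more often called lower than higher, where all tested genes had 31.9% called lower, 30.9% called higher and a median of -0.01. Of 22 further sterol and isoprenoid genes, 21 were tested, 5 were called higher and 12 lower, with a median of -0.23. Abca1, which exports cholesterol from the cell, went from 47.6, 46.4 and 50.2 CPM to 18.0, 18.2 and 18.9 CPM (a shift of -1.39 ± 0.05 on the log2 scale, adjusted p = 2.6e-13). Abcg1, another sterol exporter, had a log2 fold change of -0.78 and Npc2, which moves cholesterol out of lysosomes, one of -0.55. Soat1, which esterifies cholesterol for storage, had 22.6, 22.1 and 23.3 CPM at 24 h and rose to 47.5, 54.2 and 48.0 CPM (1.14 ± 0.06 on the log2 scale, adjusted p = 1.77e-11). Ggps1, the geranylgeranyl diphosphate synthase, and Mbtps2, a protease that releases SREBP, rose by 0.36 and 0.34.

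Of 27 further fatty acid and glycerolipid genes, 24 were tested, 7 were called higher, a share close to that of all tested genes, and 14 lower, with a median of -0.16. Mid1ip1, whose product promotes the polymerization and activity of acetyl-CoA carboxylase, had 30.8, 30.1 and 29.4 CPM at 24 h and rose to 67.2, 61.3 and 64.9 CPM (1.10 ± 0.04 on the log2 scale, adjusted p = 1.53e-12). Hacd2, a dehydratase of the elongation cycle, and Elovl2, an elongase of polyunsaturated chains, rose by 0.65 and 0.36. Elovl7, another elongase, had 9.46, 8.74 and 9.87 CPM at 24 h and fell to 2.85, 3.52 and 2.25 CPM (-1.7 ± 0.13 on the log2 scale, adjusted p = 9.45e-09). Acss2, which makes acetyl-CoA from acetate, and Agpat2, an acyltransferase of phosphatidic acid synthesis, had log2 fold changes of -0.70 and -0.56.

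Counting could blur some of these values. Of the 38 genes, 28 had whole-number counts in every library, within a tolerance of 1e-06. The other 10, which were Acat2, Idi1, Fdps, Fdft1, Tm7sf2, Insig1, Acaca, Scd1, Scd2 and Acsl3, had fractional counts in at least 1 library, and their values carry the uncertainty of how shared reads were split. In GENCODE M21, exons of 11 of the genes overlap those of a gene on the opposite strand: Hmgcs1, Idi1, Fdft1, Lss, Cyp51, Srebf1, Scap, Elovl1, Elovl6, Acsl1 and Acsl5. Whether the counting used strand is not given in the sources used here, so their counts may include reads of those neighbours. Exons of Fdps, Tm7sf2 (with Vps51), Srebf1, Scd2 and Acsl3 (with Utp14b) overlap those of a gene on the same strand, which strand cannot separate. Acsl4, Sqle, Fasn and Ebp had none of these limits.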

How the data were processed

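Total RNA was turned into messenger RNA libraries (KAPA HyperPrep), per the labels' protocols. The authors deposited 1 table of RSEM estimated counts, scaled neither for depth nor for length. The submitters' processing notes list cutadapt 1.9.1, STAR 2.5.2, RSEM 1.3.0 and the build GRCm38. The annotation and settings are not given in the sources used here. All 6 columns matched a sample title, and 0 columns were left over. Of 51912 gene identifiers, 51633 matched a symbol in GENCODE M21, and each of the 38 genes matched 1 identifier.

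Estimated counts were rounded, filtered with edgeR's filterByExpr (minimum count 10), TMM-scaled and tested in edgeR 4.0.16 (under R 4.3.3) with glmQLFit and glmQLFTest, modelling group alone, with Benjamini-Hochberg adjustment over all 14889 tested genes. The standard error is the fold change divided by the square root of F. The test was checked on simulated data. The genes and lists were chosen with earlier results of these data known. Any of the 38 genes could be named. Of the further lists, called genes whose mean reached 5 CPM were named, 3 from each end of the fold changes. Alternatives were RLE and library-size scaling, 2 other filters, DESeq2 1.42.0, limma voom (limma 3.58.1), the replicate number as a block, a threshold of 0.01, and leaving out each library.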

Additional observations from a re-analysis of the deposited data

How the results depend on the processing

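Of the 38 genes, between 29 (library size only) and 35 (RLE scaling) were called, and in every alternative run the count was within 1.5 times of the 34 given above, as was that of all genes (7810 to 9792). Of 494 values of single genes over 13 alternatives, 472 kept their sign and call, 16 kept their sign but were no longer called, 2 became called and 4 reversed in sign, of which Acat2 and Acly also lost the call, and all changes were in 7 genes. When libraries were scaled by size only, the sterol median was 0.154, the fatty acid median 0.007, and Acat2, Msmo1 and Acly reversed to -0.0003978, -0.013 and -0.01. By construction that setting shifts all genes alike. Leaving out 1 library gave a sterol median between 0.196 (without replicate 1 of 24 h) and 0.224, and an Elovl1 value between -0.058 and 0.013, the latter without replicate 1 of 24 h. Acat2 lost its call in 4 of these 6 fits and Fads1 in 5. With the replicate block, 33 of the 38 genes were called, Acat2 (adjusted p = 0.06445) being the call that was lost. Deviations of same-numbered libraries correlated at -0.046, -0.043 and -0.0085, which gave no sign of pairing. Of the 38 genes, Acsl5 had the fewest counts, 108 in 1 library.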

Other observations

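Of 21 genes of mitochondrial and peroxisomal fatty acid oxidation, 20 were tested, 14 were called lower and 2 higher, where all tested genes had 31.9% called lower and 30.9% higher. The median log2 fold change was -0.21, against -0.01 for all tested genes. Cpt1a, the gatekeeper that loads fatty acids onto carnitine, stood at 69.2, 63.8 and 67.8 CPM at 24 h and at 24.5, 22.1 and 20.3 CPM at 48 h (-1.59 ± 0.06, edgeR adjusted p = 2.6e-13). Slc25a20, the carrier of acylcarnitine into mitochondria, and Acaa2, an enzyme of the last step of the cycle, had log2 fold changes of -1.08 and -1.25. Acadl, an acyl-CoA dehydrogenase, and Hadhb, a subunit of the trifunctional protein, were the 2 that rose, by 0.23 and 0.10.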
